A study of Mus musculus with 10 samples.

Results

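Brain vessels were followed in the microglial fraction through 33 genes, of which 28 mark endothelial cells and 5 mark pericytes. The genes were listed by name as known markers of these cells, not by a threshold on the counts. All 33 were listed among the 24421 gene symbols of the series, all 33 passed the filter on low counts that left 18727 genes for testing, and no member was at 0 in any of the 10 libraries.

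Endothelial cells line the vessels of the brain, where tight junctions and selective transporters form the blood-brain barrier. VEGF and angiopoietin receptors, with transcription factors of the ETS and SOX families, set and keep their identity. Pericytes sit on the capillary wall inside the same basement membrane, answer PDGF from the endothelium and help to control barrier function and blood flow, and in models of Alzheimer's disease this vascular unit is studied because amyloid also collects at vessel walls.

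The study asked how N-AS (N-acetyl sphingosine) acts on microglia of APP/PS1 mice, a model of amyloid deposition that carries human APP with the Swedish mutation and a mutant presenilin-1 (PS1) as transgenes. Microglia were taken from the cortex of 9-month-old animals by papain dissociation and Optiprep density gradient, with no antibody sort described, and 2 mice were pooled per library. There were 3 WT libraries, 4 APP/PS1 libraries and 3 libraries from APP/PS1 mice given N-AS subcutaneously each day at 30 mg/kg for 8 weeks from the age of 7 months (called N-AS libraries here). The labels name no injection for the WT and APP/PS1 libraries, the study's text describes the APP/PS1 mice set against N-AS as given vehicle, and both transgenes are shared by the APP/PS1 and N-AS groups.

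The libraries held 8805804 to 19432075 counted reads. All 14 microglial markers were detected in every library, but so were the markers of other brain cells, with summed levels in WT of 1022 to 1518 CPM (reads of a gene scaled to a common library size) for the 14 microglial markers, 3136 to 6324 CPM for 10 neuronal markers and 2836 to 5965 CPM for the 28 endothelial members. The fraction thus also held RNA of these cells, and in it fewer vessel cells and less RNA per vessel cell cannot be told apart. The endothelial sum includes Bsg and Spock2, which other cells also make, with WT means of 751 and 911 CPM. In APP/PS1 the microglial sum was 3459 to 4748 CPM and the endothelial sum 4386 to 5060 CPM. Between 29 and 37 Xist reads were counted in N-AS 3 and each WT library, and 5253 to 11188 in the other 6 libraries, although the study's methods describe only male mice. Those 6 were not alike, since the Y-linked gene Ddx3y had 203 to 359 reads in APP/PS1 1 and 2 and N-AS 1 and 2 but 7 and 10 in APP/PS1 3 and 4, against 590 to 1431 in WT and N-AS 3. Sex and genotype therefore cannot be told apart in APP/PS1 against WT. In N-AS against WT, sex-linked reads were unequal for N-AS 1 and 2 but not for N-AS 3. In N-AS against APP/PS1 they were unequal for N-AS 3, and Ddx3y also differed between N-AS 1 and 2 and APP/PS1 3 and 4.

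The library WT 3 stood apart from the rest. It was the lowest of all 10 libraries in 27 of the 33 members, and it was below the mean of WT 1 and WT 2 in all 33 on the log2 CPM scale. The median of its differences from that mean was −1.24 over the members, with 22 members more than 1 below, and −0.078 over all genes tested, with 9.79% of them more than 1 below. WT 2 was the highest library in 27 members. The members' comparisons with WT were therefore also fitted without WT 3, and so was N-AS against APP/PS1, which shares the estimate of spread.

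Over the 28 endothelial members the mean level was 6.57, 6.87 and 5.54 log2 CPM in WT 1 to 3, 6.46, 6.45, 6.34 and 6.45 in APP/PS1 1 to 4, and 6.28, 6.43 and 6.32 in N-AS 1 to 3. The APP/PS1 and N-AS libraries lay inside the range of the WT libraries. The WT group averaged 6.32 ± 0.70 (SD, n = 3). The APP/PS1 group averaged 6.42 ± 0.055 (SD, n = 4), and the N-AS group 6.34 ± 0.077 (SD, n = 3). The difference of APP/PS1 from WT was 0.099 on the log2 scale and became −0.30 without WT 3. The 5 pericyte members averaged 5.52 ± 0.37 (SD, n = 3), 5.67 ± 0.20 (SD, n = 4) and 5.60 ± 0.075 (SD, n = 3), and their difference of APP/PS1 from WT was 0.15, or −0.055 without WT 3. N-AS differed from APP/PS1 by −0.080 in the endothelial and −0.077 in the pericyte members, each about the size of the SD between the N-AS libraries.

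**Figure D1:**
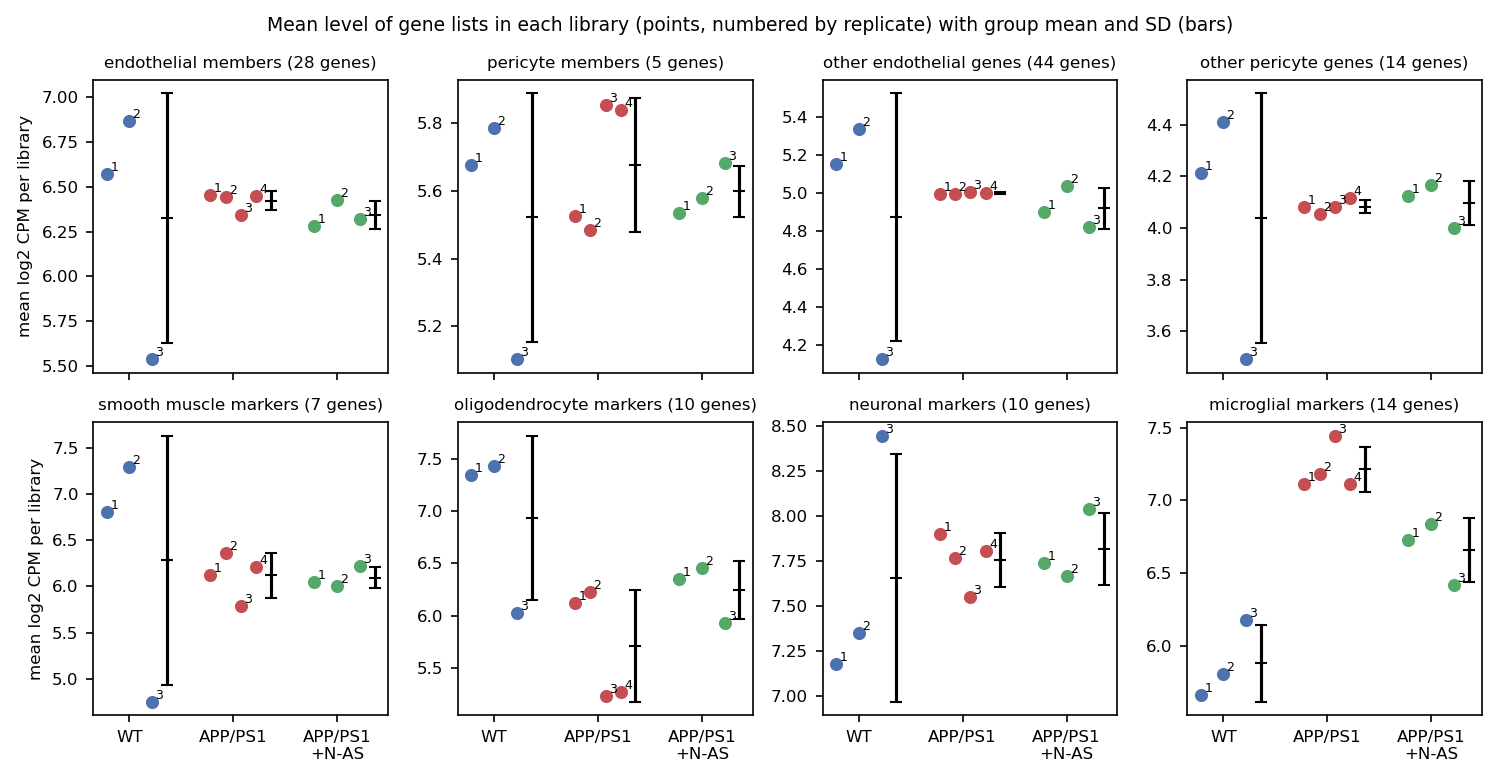
Mean log2 CPM of 8 gene lists (y axis, one panel per list) in each WT, APP/PS1 and N-AS library (points numbered by replicate), with group mean and SD as bars. WT 3 lies lowest in both member lists, at 5.54 for the endothelial genes, and highest in the neuronal markers, while the microglial markers separate all APP/PS1 libraries from WT.

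Claudin-5 (Cldn5) and occludin (Ocln) seal the contacts between brain endothelial cells, and VE-cadherin (Cdh5), PECAM-1 (Pecam1) and Esam hold the cells together. The promoters of Cldn5 and Ocln are shown with those of Egfl7, which joins them in the comparison without WT 3, and of Mfsd2a, the member in which WT 3 was closest to the other WT libraries. Each line gives the 250 bases before the most upstream start listed for the gene in the RefSeq windows of GRCm38.p6, read in the direction of the gene, with GGAAG (the core bound by ETS factors such as Erg) or its complement CTTCC in capitals.
Cldn5 (chr16:18776597-18776846, plus strand): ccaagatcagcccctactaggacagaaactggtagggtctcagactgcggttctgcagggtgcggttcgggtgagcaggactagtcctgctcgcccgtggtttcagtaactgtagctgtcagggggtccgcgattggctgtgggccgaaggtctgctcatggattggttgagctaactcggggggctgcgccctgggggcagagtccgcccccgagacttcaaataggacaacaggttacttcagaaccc
Ocln (chr13:100552719-100552968, minus strand): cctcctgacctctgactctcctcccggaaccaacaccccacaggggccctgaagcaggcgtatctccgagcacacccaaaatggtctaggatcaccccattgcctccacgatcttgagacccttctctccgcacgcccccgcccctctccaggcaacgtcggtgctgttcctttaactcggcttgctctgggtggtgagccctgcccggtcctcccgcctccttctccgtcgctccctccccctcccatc
Egfl7 (chr2:26580833-26581082, plus strand): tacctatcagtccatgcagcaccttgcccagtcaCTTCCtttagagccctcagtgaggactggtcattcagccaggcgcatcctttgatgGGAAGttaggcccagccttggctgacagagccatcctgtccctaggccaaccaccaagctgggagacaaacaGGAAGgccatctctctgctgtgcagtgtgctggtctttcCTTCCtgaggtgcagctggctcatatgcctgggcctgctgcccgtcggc
Mfsd2a (chr4:122961189-122961438, minus strand): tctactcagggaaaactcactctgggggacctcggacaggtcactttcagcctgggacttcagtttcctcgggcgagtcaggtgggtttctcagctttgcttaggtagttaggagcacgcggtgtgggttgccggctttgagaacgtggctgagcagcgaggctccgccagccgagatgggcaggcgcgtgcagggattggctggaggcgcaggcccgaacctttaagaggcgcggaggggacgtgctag

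The start used for Egfl7 lies 1069 bases inside the gene as GENCODE annotates it, and those of the other 3 genes are at the GENCODE start. Egfl7 held 4 such cores and the other 3 windows held none. RefSeq windows, which run from these 250 bases to shortly after the start, were found for 23 of the 33 members, 31 windows in all. Motifs were searched only in the 250 bases before the start of each window. GGAAG on either strand was in 20 of the 31 (64.5%) and in 64.1% of all 32851 windows. The SOX motif ACAAAG was in 6 of the 31 (19.4%) against 16.5% of all windows and the FOX motif GTAAACA in 1 of the 31 (3.23%) against 3.17%, with both strands counted, and none of the 3 motifs contains another.

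Cldn5 (chr16:18776847-18778262, plus strand) was at 53.4, 62.1 and 26.7 CPM in WT 1 to 3, at 36.3, 37.4, 28.1 and 38.04 in APP/PS1 1 to 4 and at 30.8, 34.1 and 38.4 in N-AS 1 to 3. WT 1 and WT 2 were above every transgenic library, and WT 3 was below all of them. The log2 fold change was −0.44 (SE 0.24, edgeR adjusted p = 0.406) in APP/PS1 against WT, −0.022 (SE 0.24, edgeR adjusted p = 0.99) in N-AS against APP/PS1 and −0.46 (SE 0.26, edgeR adjusted p = 0.786) in N-AS against WT. Ocln (chr13:100496507-100552718, minus strand) showed the same order, with 65.7, 77.6 and 26.6 CPM in WT, 46.5, 45.2, 52.7 and 54.6 in APP/PS1 and 43.7, 48.03 and 46.4 with N-AS. Its log2 fold change was −0.18 (SE 0.28, edgeR adjusted p = 0.794) in APP/PS1 against WT.

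Pecam1, an adhesion receptor that leukocytes also carry, was at 206, 245 and 71.2 CPM in WT, 208, 185, 214 and 231 in APP/PS1 and 162, 182 and 135 with N-AS. All 3 N-AS libraries lay below all 4 APP/PS1 libraries, and the fold change of −0.39 (SE 0.33, edgeR adjusted p = 0.769) did not pass the test. Esam was at 59.03, 60.1, 53.8 and 59.6 CPM in APP/PS1 and 51.3, 50.4 and 48.4 with N-AS, again without overlap, with a log2 fold change of −0.22 (SE 0.25, edgeR adjusted p = 0.845). Cdh5 lay at 102, 126 and 47.7 CPM in WT, 101, 112, 107 and 101 in APP/PS1 and 87.2, 105 and 80.97 with N-AS, where the groups overlapped.

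**Figure D2:**
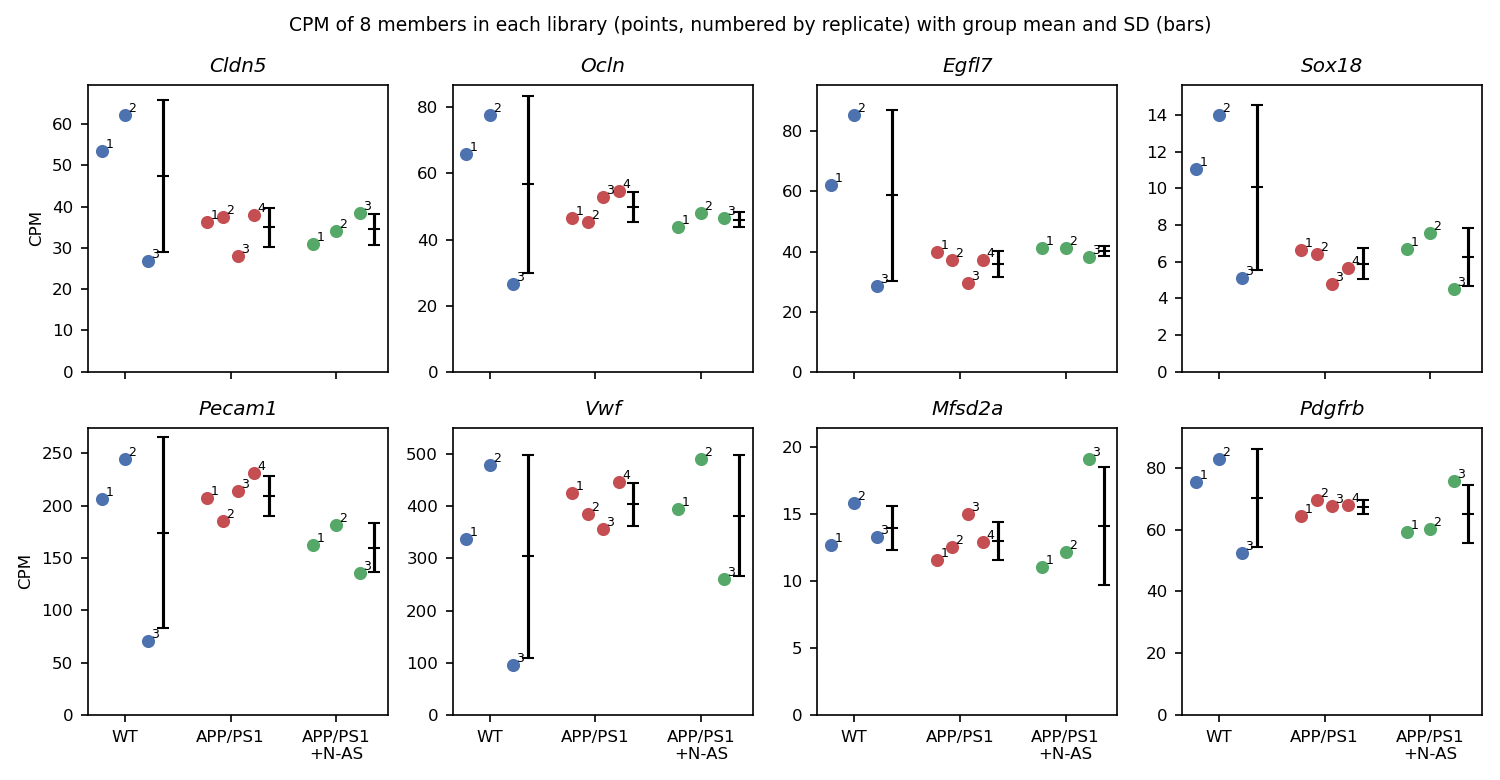
CPM (y axis, from 0) of 8 members in each library (points numbered by replicate) with group mean and SD as bars. In Cldn5, Ocln, Egfl7 and Sox18 WT 1 and WT 2 lie above all APP/PS1 and N-AS libraries and WT 3 lies among or below them. Pdgfrb shows the same split against APP/PS1, but N-AS 3 lies level with WT 1, and Mfsd2a shows no such split.

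Among the receptors for vessel growth factors, Kdr and Flt1 are the VEGF receptors, Flt1 with high affinity and weak signalling, Tek (TIE2) is the angiopoietin receptor with Tie1 as its partner, and Eng (endoglin) is a co-receptor for BMP9 and TGF-beta. Flt1 was the most abundant of them, with 367, 468 and 176 CPM in WT, 463, 456, 385 and 418 in APP/PS1 and 380.3, 427 and 365 with N-AS. Kdr was at 65.6, 81.8 and 40.3 CPM in WT, 64.99, 67.8, 59.8 and 80.7 in APP/PS1 and 42.3, 45.9 and 64.9 with N-AS. N-AS 1 and N-AS 2 were low for Kdr and N-AS 3 was level with APP/PS1, and the log2 fold change of N-AS against APP/PS1 was −0.42 (SE 0.23, edgeR adjusted p = 0.629). All 5 receptors had a positive log2 fold change in APP/PS1 against WT, from 0.033 for Tie1 to 0.39 for Eng, and none passed the test. Without WT 3 they were −0.10 for Kdr, −0.16 for Tek, −0.30 for Tie1, 0.050 for Flt1 and 0.13 for Eng, with none past the test. In N-AS against APP/PS1 all 5 were negative, from −0.42 for Kdr to −0.11 for Tek, again with none past the test.

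Tie1 and Eng were the receptors whose N-AS libraries all lay below APP/PS1. Tie1 was at 46.1, 47.8, 46.3 and 44.9 CPM in APP/PS1 and 37.5, 44.7 and 36.4 with N-AS. Eng was at 83.6, 87.2, 78.2 and 78.8 CPM in APP/PS1 and 76.5, 77.5 and 69.97 with N-AS. Tek had the narrowest range of the receptors over the APP/PS1 libraries, 110.4, 108, 107 and 111 CPM, against 112, 134 and 46.96 CPM in WT.

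Transport across the barrier was covered by 6 members. The glucose carrier Slc2a1 (GLUT1), the drug pumps Abcb1a (P-glycoprotein) and Abcg2, the organic anion and thyroid hormone carriers Slco1a4 and Slco1c1, and the lipid carrier Mfsd2a made up this group. Abcb1a was at 354, 353, 350.3 and 353 CPM in APP/PS1, a spread of 1.01-fold, while WT ranged over 381, 455 and 186 CPM. Slc2a1 was at 404, 564 and 165 CPM in WT, 447, 429.5, 388 and 456 in APP/PS1 and 420.2, 511 and 326 with N-AS, with a log2 fold change of 0.19 (SE 0.33, edgeR adjusted p = 0.825) in APP/PS1 against WT. The log2 fold changes of the 6 transporters ran from −0.21 in Slco1a4 to 0.19 in Slc2a1 in that comparison, and from −0.037 (Slc2a1) to 0.22 (Slco1a4) in N-AS against APP/PS1. Without WT 3 all 6 were negative in APP/PS1 against WT, with Slco1a4 at −0.51 (SE 0.16, edgeR adjusted p = 0.0953), Abcg2 at −0.38 (SE 0.12, edgeR adjusted p = 0.107) and Slc2a1 at −0.16 (SE 0.21, edgeR adjusted p = 0.703), and none passed the test. In Slco1a4, Slco1c1, Abcb1a and Abcg2 all APP/PS1 libraries then lay below both WT libraries, as in 14.7% of all genes. WT 3 was left out because it was low in the members, so this is not independent support for a lower level.

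Mfsd2a, which keeps transcytosis low in the barrier, was at 12.7, 15.8 and 13.3 CPM in WT, 11.6, 12.6, 14.96 and 12.9 in APP/PS1 and 11.1, 12.1 and 19.1 with N-AS. WT 3 was not low in this gene, and N-AS 3 was its highest library. Slco1c1 was at 91.6, 117 and 75.98 CPM in WT, 85.5, 88.3, 90.5 and 85.2 in APP/PS1 and 81.5, 75.9 and 115 with N-AS, so that N-AS 2 and WT 3 were the lowest libraries. Slco1a4 ran from 82.9 to 204 CPM and Abcg2 from 39.2 to 82.7 CPM. In both of these WT 3 was the lowest library of all. Abcb1b, the paralog of Abcb1a, had 279 to 920 reads. The genes of the pairs Slco1c1 and Slco1a4, Kcnj8 and Abcc9, and Ly6a and Ly6c1 lie close together, on chromosomes 6, 6 and 15.

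Of the 3 transcription factors, Erg is an ETS factor, and Sox17 and Sox18 are SOX factors of vessel development. Sox18 (chr2:181669836-181671640, minus strand) was one of the lowest members, with 61 to 226 reads per library, and lay at 11.1, 13.99 and 5.11 CPM in WT, 6.65, 6.45, 4.78 and 5.67 in APP/PS1 and 6.72, 7.58 and 4.51 with N-AS. WT 1 and WT 2 were the highest 2 libraries. Its log2 fold change of −0.77 (SE 0.31, edgeR adjusted p = 0.232) in APP/PS1 against WT had an unadjusted p of 0.0316 and a 95% interval of −1.45 to −0.081. Sox17 ran from 9.64 to 28.05 CPM and Erg from 28.7 to 69.8 CPM. In both genes WT 3 was the lowest and WT 2 the highest library, and their log2 fold changes were −0.19 and −0.0014 in APP/PS1 against WT and −0.17 and −0.15 in N-AS against APP/PS1. Without WT 3 those in APP/PS1 against WT were −0.52 (SE 0.18, edgeR adjusted p = 0.131) for Sox17 and −0.29 (SE 0.14, edgeR adjusted p = 0.272) for Erg. All APP/PS1 libraries then lay below both WT libraries (14.7% of all genes), and neither gene passed the test.

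Among the 3 secreted proteins, Egfl7 (chr2:26580014-26593120, plus strand) is a secreted angiogenic factor whose introns hold the microRNAs of the miR-126 family. It was at 62.04, 85.3 and 28.7 CPM in WT, 39.7, 37.1, 29.5 and 37.1 in APP/PS1 and 41.2, 41.2 and 38.3 with N-AS. WT 1 and WT 2 again exceeded all transgenic libraries, and WT 3 was the lowest of the 10. The log2 fold change of −0.71 (SE 0.28, edgeR adjusted p = 0.219) in APP/PS1 against WT, with an unadjusted p of 0.0282 and a 95% interval of −1.33 to −0.091 did not pass the adjusted threshold, and Egfl7 and Sox18 were the only members of the 33 with an unadjusted p under 0.05 there. The deposited list gives Mir126a 6 to 34 reads and Mir126b 20 to 85, and the opposite-strand neighbour Agpat2 40 to 118. The strand setting of the counting is not given in the sources used here, so reads of Egfl7 and of genes overlapping it could not be separated.

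Vwf, the clotting factor carrier stored by endothelial cells, had the widest range of the members. It was at 337, 479 and 95.2 CPM in WT, 425, 386, 356 and 447 in APP/PS1 and 394, 491 and 261 with N-AS, a 5.16-fold range that was 1.88-fold without WT 3. Its 95% interval of −0.52 to 1.34 in APP/PS1 against WT was the widest of the members. Spock2, a brain proteoglycan that neurons also make, ran from 667 to 1017 CPM, 1.52-fold.

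Of the surface proteins, Podxl and Emcn are sialomucins of the endothelial surface, Ly6a and Ly6c1 are GPI-anchored proteins, Itm2a is a membrane protein encoded on the X chromosome, and Bsg (basigin) is a chaperone of lactate carriers found on many cell types. Ly6c1 was at 61.7, 74.05 and 20.8 CPM in WT, 64.6, 61.5, 45.98 and 60.99 in APP/PS1 and 53.04, 64.8 and 50.8 with N-AS. Ly6a was at 45.4, 54.1 and 14.2 CPM in WT, 43.2, 33.3, 28.8 and 37.3 in APP/PS1 and 37.03, 44.1 and 27.6 with N-AS. Podxl ran from 72.9 to 237 CPM. WT 3 was below each of the other 9 libraries in these 3 genes. Emcn ran from 13.4 to 34.8 CPM and Itm2a from 45.6 to 97.2 CPM, with log2 fold changes of 0.12 and 0.078 in APP/PS1 against WT and −0.26 and −0.044 in N-AS against APP/PS1. Without WT 3 those in APP/PS1 against WT were −0.20 and −0.18, and Podxl and Ly6a were at −0.37 and −0.48, none past the test. The Ly6c1 paralog Ly6c2 had 68 to 190 reads and Ly6e 647 to 2360, so that shared reads could move either value. Bsg led all members per length, at 414 ± 107 CPM per kilobase of exon in WT (SD, n = 3). It was at 434 ± 15.0 in APP/PS1 (SD, n = 4) and at 399.8 ± 37.2 with N-AS (SD, n = 3). The next were Spock2 and Slc2a1, with means over the 10 libraries of 154.7 and 117 CPM per kilobase, and the lowest were Sox17 at 3.64 and Kcnj8 at 3.15.

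The pericytes were represented by 5 genes. Pdgfrb is the receptor through which endothelial PDGF-B recruits pericytes, Rgs5 damps G protein signalling, Vtn (vitronectin) is secreted, and Kcnj8 and Abcc9 are the pore and the sulphonylurea subunit of a potassium channel opened when ATP falls. Pdgfrb was at 75.4, 83.02 and 52.6 CPM in WT, 64.3, 69.5, 67.6 and 68.1 in APP/PS1 and 59.2, 60.1 and 75.7 with N-AS. Rgs5 was at 80.8, 107 and 38.8 CPM in WT, 98.8, 90.8, 79.9 and 100.5 in APP/PS1 and 90.9, 96.2 and 102 with N-AS. Vtn was at 80.6, 104 and 63.9 CPM in WT, 79.9, 73.6, 103 and 96.6 in APP/PS1 and 85.9, 94.7 and 94.3 with N-AS, and its groups overlapped throughout. On the log2 scale WT 3 differed from the mean of WT 1 and WT 2 by −1.26 in Rgs5 and by −0.31 in Abcc9. Kcnj8 was at 7.25, 5.95, 11.96 and 10.6 CPM in APP/PS1 and 6.59, 6.20 and 7.24 with N-AS, where APP/PS1 3 and 4 were the highest 2 libraries, and its log2 fold change of −0.43 (SE 0.25, edgeR adjusted p = 0.648) did not pass the test. Abcc9 also had its 2 highest libraries there, at 94.96 and 86.1 CPM, over a range of 54.8 to 94.96 CPM. Kcnj8 had 72 to 222 reads per library.

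**Figure D3:**
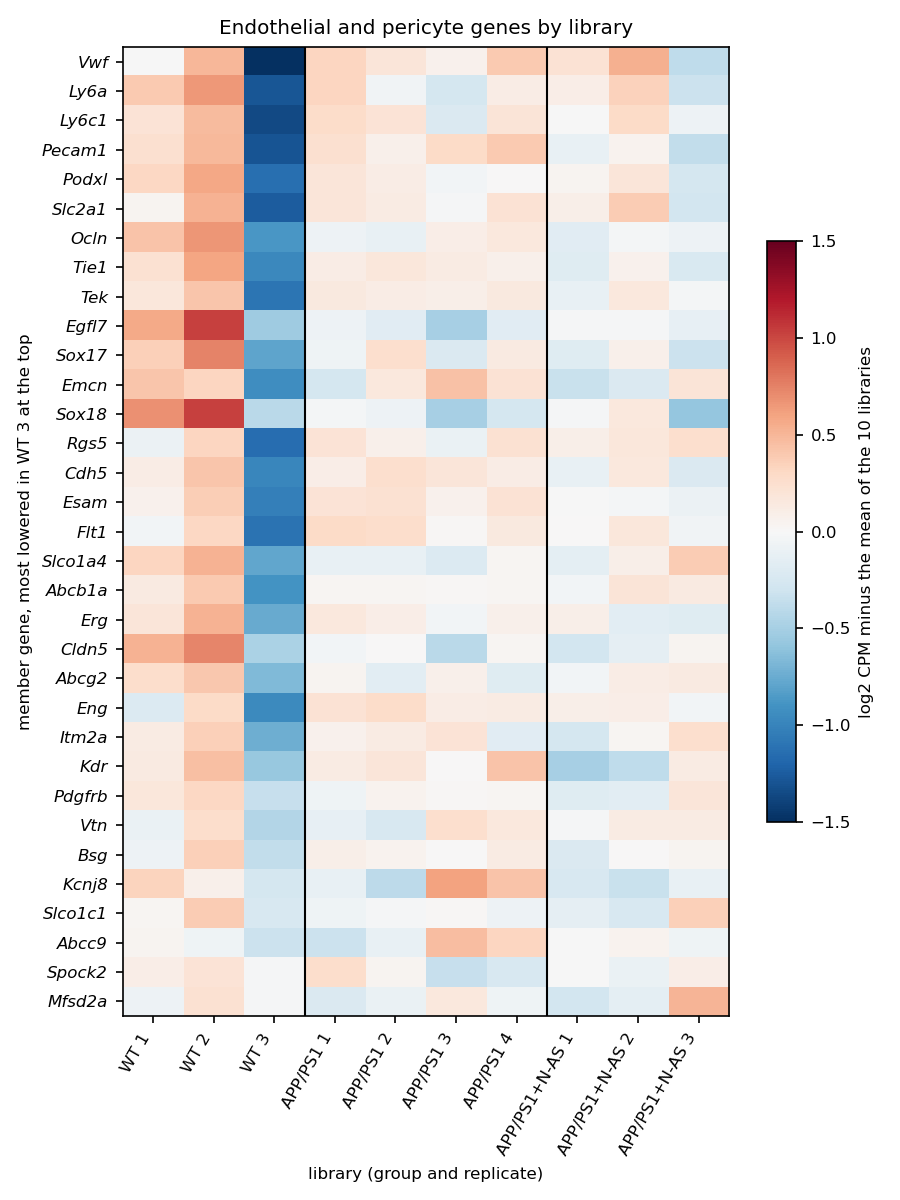
Log2 CPM of each of the 33 members minus its mean over the 10 libraries (colour, red above and blue below), with members sorted by the deviation of WT 3 from the other WT libraries (top: most lowered). WT 3 is blue for most genes and WT 2 red, and the lower rows, Spock2, Mfsd2a, Abcc9 and Kcnj8 among them, show little of this.

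In APP/PS1 against WT, no vessel gene was called when all 10 libraries were used. No member passed the adjusted threshold of 0.05 in edgeR's quasi-likelihood test, 0 of 33 higher and 0 of 33 lower, while 2.67% of all genes were called higher and 0.796% lower. At an unadjusted p under 0.05, 2 members were lower, Egfl7 and Sox18, and none higher (8.90% and 8.30% of all genes), DESeq2 also called none, with 2 lower at the unadjusted level, and limma-voom called none at either level. Of the 33, 19 had a positive and 14 a negative fold change, with a median of 0.068 against −0.074 over all genes, and no member's groups failed to overlap (14.9% of all genes). The 95% interval lay within 1 on the log2 scale for 30 of the 33, with Egfl7, Sox18 and Vwf outside it, against 62.6% of all genes. A 2-fold change was thus outside the interval for most members, but the interval assumes one spread per gene in all 3 groups. The median SD of the members was 0.73 in WT and 0.14 in APP/PS1. The intervals can therefore be too narrow for WT, and a 2-fold difference from WT is not excluded by them.

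Without WT 3, both tight junction genes, Egfl7 and Sox18 were called lower in APP/PS1. These 4 members stood against 1.96% of the genes tested, and none was called higher (2.87%). WT 3 was left out because it was low in these same members. Its removal raises the WT mean and narrows the WT spread, so these calls are not independent support for a lower level. The log2 fold changes were, for Egfl7, −1.04 (SE 0.16, edgeR adjusted p = 0.0066), for Cldn5 −0.72 (SE 0.15, edgeR adjusted p = 0.0253), for Sox18 −1.09 (SE 0.23, edgeR adjusted p = 0.0273) and for Ocln −0.52 (SE 0.13, edgeR adjusted p = 0.0457). In that fit 29 of the 33 members were negative (55.6% of all genes), 9 had an unadjusted p under 0.05 and a lower level (10.8%), and 15 had all APP/PS1 libraries below both WT libraries (14.7%). Each of the 4 calls rests on 2 WT libraries, and each was absent in all 10 libraries together and in every other setting tried. Restricted to the libraries numbered 1 to 6, the endothelial mean of APP/PS1 differed from WT by −0.27 on the log2 scale, and in those numbered 7 to 10, where WT 3 is the only WT library, by 0.86.

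**Figure D4:**
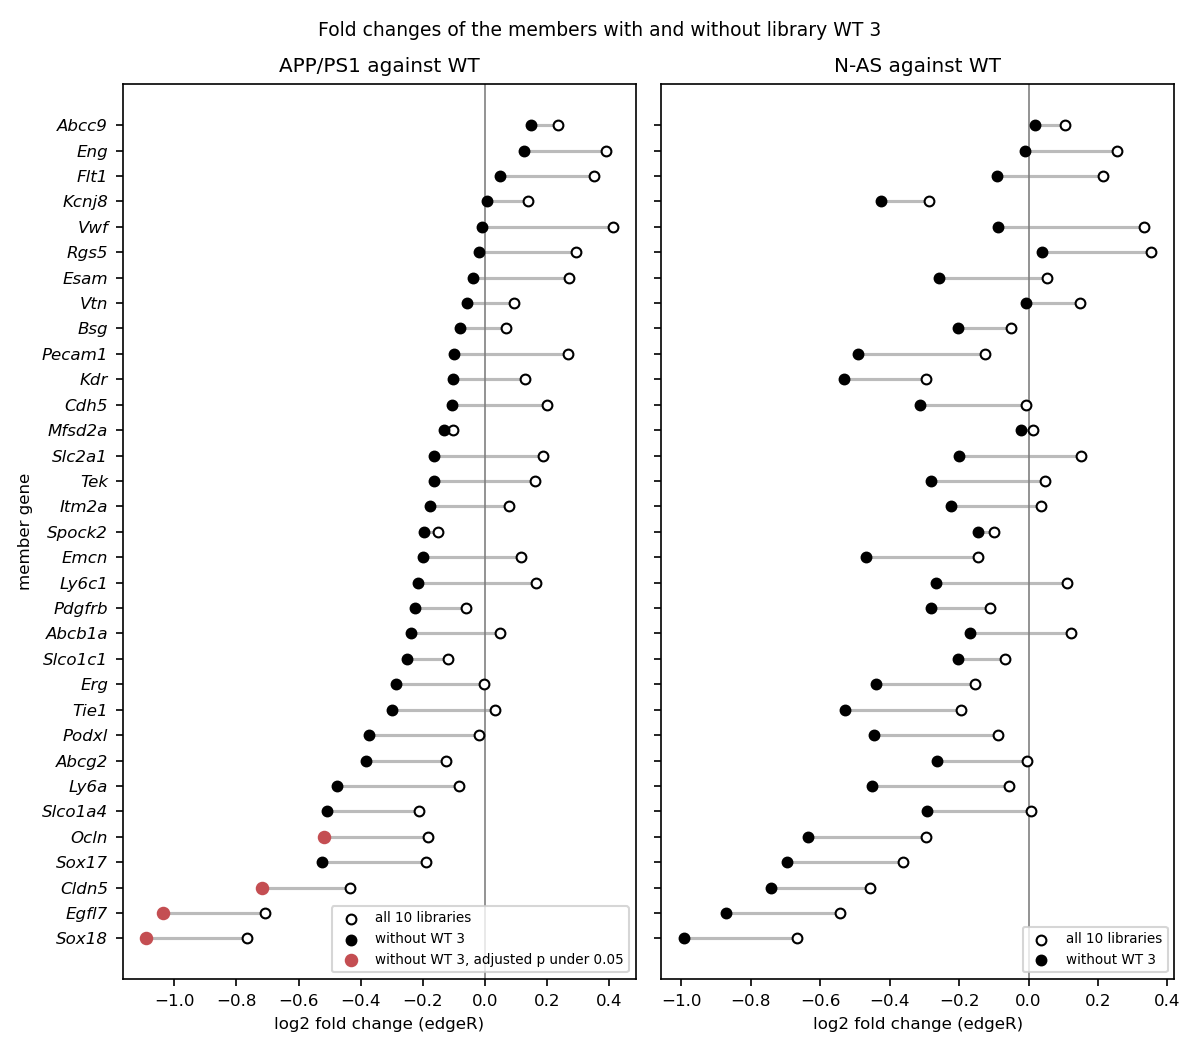
Log2 fold changes (x axis) of the members with all 10 libraries (open) and without WT 3 (filled), against WT, for APP/PS1 (left) and N-AS (right), edgeR. Nearly all members shift to lower values without WT 3, and the 4 red points, Egfl7, Sox18, Cldn5 and Ocln, pass an adjusted p of 0.05.

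In N-AS against APP/PS1, no member was called in either direction, and edgeR called no gene at all (0% higher and 0% lower), with 4.05% of genes lower and 4.78% higher at an unadjusted p under 0.05 and 0 of 33 members at that level. DESeq2 called no member, where it called 20 genes higher and 53 lower, and limma-voom called none. Of the members 22 were negative and 11 positive, with a median of −0.069 against −0.0089 over all genes. The 4 members whose N-AS libraries all lay below APP/PS1 were Pecam1, Tie1, Esam and Eng, against 6.46% of all genes lower without overlap, and no member was higher without overlap (6.26%). The endothelial mean differed by −0.097 in the libraries numbered 1 to 6 and by −0.074 in those numbered 7 to 10. N-AS 3 stood apart in the 5 choroid plexus markers, with a mean of 0.84 log2 CPM against 3.77 and 4.27 in N-AS 1 and 2 and 4.14 to 4.68 in APP/PS1. Without N-AS 3 again 0 of 33 members were called, the endothelial mean differed by −0.059 and the pericyte mean by −0.11. In that fit Kdr, at −0.62 (SE 0.26, edgeR adjusted p = 0.724), was the only member with an unadjusted p under 0.05. WT 3 also enters this comparison, through the spread shared by the 3 groups. Without WT 3 no member was called, and 2 were lower at an unadjusted p under 0.05 (5.76% of all genes). They were Pecam1 at −0.39 (SE 0.15, edgeR adjusted p = 0.362) and Kdr at −0.43 (SE 0.17, edgeR adjusted p = 0.376). With all 10 libraries the interval stayed within 1 for 31 of 33, all but Pecam1 and Vwf (69.2% of all genes).

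In N-AS against WT, edgeR called 0 of 33 members higher and 0 of 33 lower, against 0.176% and 0.0107% of all genes, and none had an unadjusted p under 0.05 (3.64% of all genes higher and 3.09% lower), with DESeq2 and limma-voom also at 0. There were 14 positive and 19 negative members, the median was −0.050, and the groups overlapped in every member (8.81% of all genes did not). Without WT 3 no member was called (0.204% of genes higher and 0.0942% lower), with the lowest adjusted p 0.0636 for Egfl7 at −0.87 (SE 0.17), 31 of 33 were negative (51.9% of all genes), 11 were lower at an unadjusted p under 0.05 (6.81%) and 17 lay wholly below both WT libraries (12% of all genes). The endothelial mean differed by 0.019 on the log2 scale and by −0.38 without WT 3. This comparison shares its libraries with the other comparisons. The interval was within 1 for 28 of 33 members (66.6% of all genes), all but Cldn5, Egfl7, Vwf, Sox17 and Sox18. It again assumes one spread for all groups and can be too narrow for WT.

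**Figure D5:**
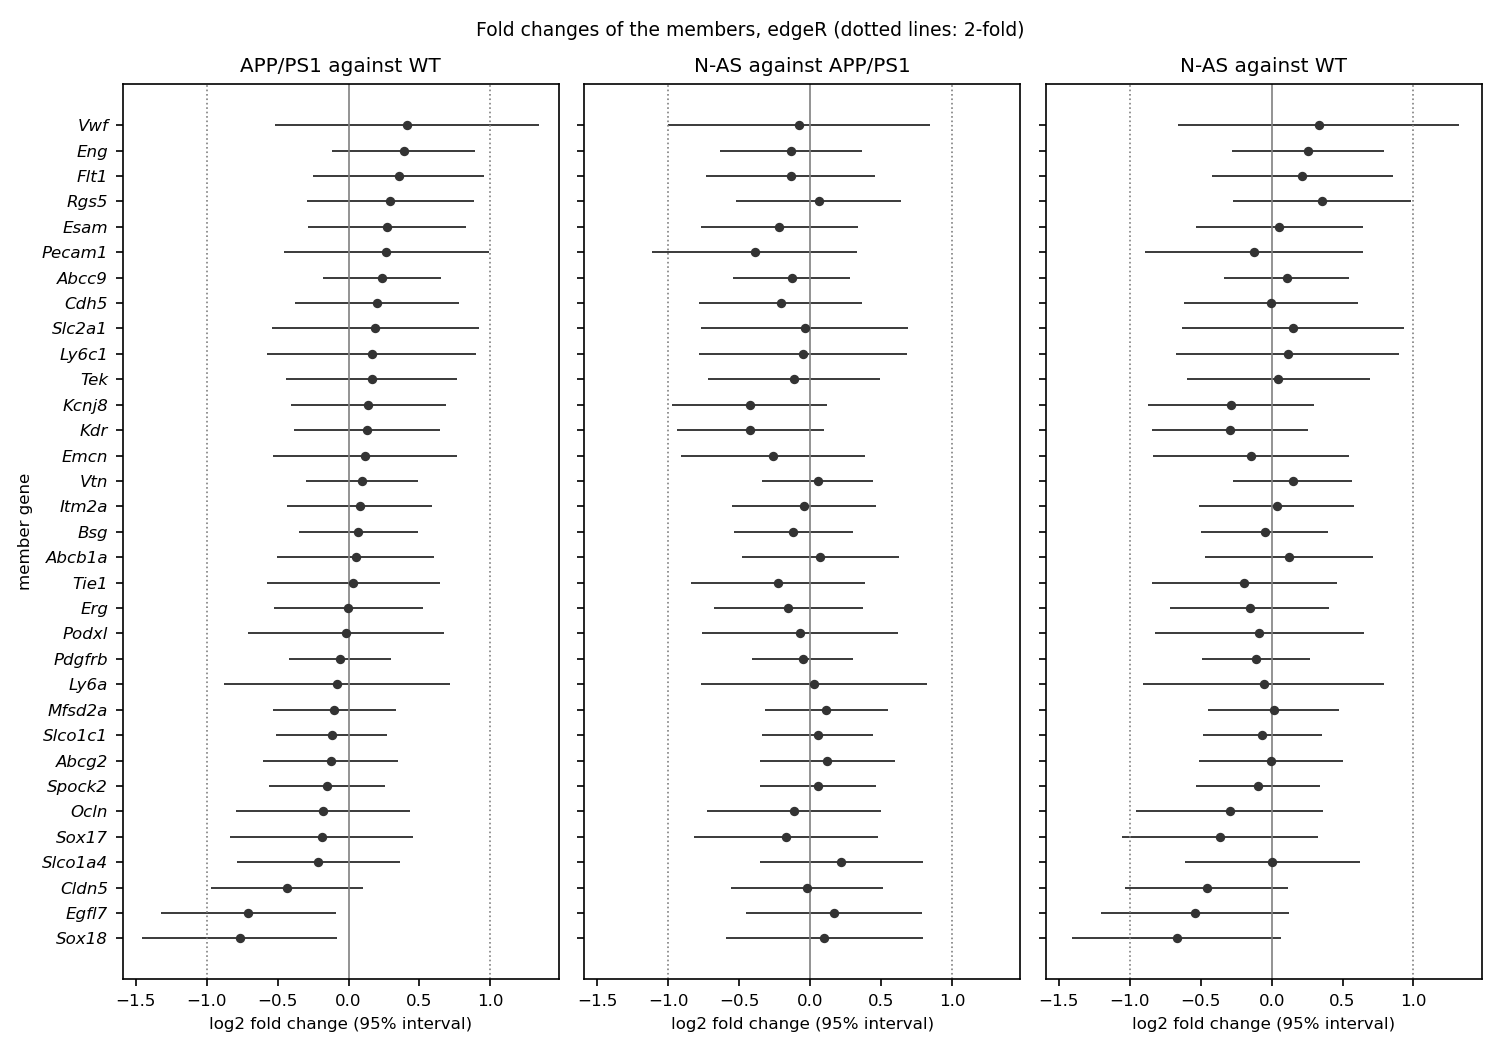
Log2 fold change and 95% interval (x axis) of each member in the 3 comparisons, sorted by the APP/PS1 value, edgeR, with dotted lines at 2-fold. Egfl7 and Sox18 have intervals below 0 in APP/PS1 against WT, and no member passes the adjusted threshold in any panel.

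Genes of the same vessels outside the 33 were read from lists of 44 other endothelial genes, 17 vascular ligands, of which 16 were tested, 14 other pericyte genes, 7 smooth muscle markers and 7 vascular fibroblast markers. In APP/PS1 against WT 1 of 44 other endothelial genes and 1 of 16 ligands were called, both higher, and none in the remaining lists. Of all genes 2.67% were called higher and 0.796% lower, so the endothelial count was near the share of all genes. Cd34, a sialomucin of endothelial and progenitor cells, was at 79.4, 99.4 and 70.3 CPM in WT, 139, 132, 149 and 157 in APP/PS1 and 96.1, 111 and 102 with N-AS, with all APP/PS1 libraries above all WT libraries and a change of 0.79 (SE 0.15, edgeR adjusted p = 0.0154). Tgfb1, which microglia also make, was at 4.99, 7.49 and 5.45 CPM in WT, 15.1, 18.1, 14.2 and 14.4 in APP/PS1 and 10.2, 13.1 and 8.05 with N-AS, a change of 1.36 (SE 0.21, edgeR adjusted p = 0.0059). Without WT 3 the values were 0.69 (SE 0.15, edgeR adjusted p = 0.0267) for Cd34 and 1.29 (SE 0.25, edgeR adjusted p = 0.0187) for Tgfb1. No gene of these lists was called in N-AS against APP/PS1 or in N-AS against WT. Their medians in APP/PS1 against WT were 0.062 for other endothelial genes, −0.13 for ligands, 0.060 for other pericyte genes, −0.44 for smooth muscle markers and −0.19 for fibroblast markers, against −0.074 over all genes.

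These list values also depended on WT 3. Without it the medians were −0.25 for other endothelial genes, −0.33 for ligands, −0.19 for other pericyte genes, −0.92 for smooth muscle markers and −0.28 for fibroblast markers, against −0.059 over all genes. In that fit 1.96% of all genes were called lower in APP/PS1 and 2.87% higher. Of the smooth muscle markers 6 of 7 were called lower, among them the contractile genes Acta2 at −1.06 (SE 0.19, edgeR adjusted p = 0.0129) and Myh11 at −1.02 (SE 0.19, edgeR adjusted p = 0.0157). With all 10 libraries 0 of 7 were called (lowest edgeR adjusted p = 0.536). Of the other endothelial genes 4 of 44 were called lower, Foxf2, Icam2, Lef1 and Apcdd1, and 1 higher, Cd34. Of the 16 ligands Dll4, a Notch ligand of endothelial cells, was called lower at −0.88 (SE 0.16, edgeR adjusted p = 0.0132), and Vegfb and Tgfb1 higher. Mcam of the other pericyte genes and Col3a1 of the fibroblast markers were called lower. WT 3 was below the mean of the other WT libraries in each of these lists, so its removal raises the WT mean. As for the members, these calls of a lower level are therefore not independent support for it. No gene of these lists was called without WT 3 in N-AS against APP/PS1 or against WT.

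WT 3 differed from the other WT libraries in lists outside the members too. On the log2 scale the difference of the means was −1.18 for the endothelial members, −1.12 for other endothelial genes, −0.63 and −0.82 for the pericyte and other pericyte genes and −2.30 for smooth muscle markers. For markers of other cells it was −1.36 for oligodendrocyte, 1.18 for neuronal, 0.44 for microglial and −0.0031 for astrocyte, and −3.00 for choroid plexus. Among members the shift went from −2.08 in Vwf, −1.80 in Ly6a, −1.69 in Ly6c1 and −1.66 in Pecam1 to −0.17 in Spock2 and −0.090 in Mfsd2a. The part of these other cells in the comparisons with WT was not tested.

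The spread over libraries differed between groups. The median SD of the members was 0.73 in WT, 0.14 in APP/PS1 and 0.16 with N-AS on the log2 scale, where all genes had 0.35, 0.23 and 0.21. The other cell types also differed between the groups, with a mean difference of 1.33 for microglial markers in APP/PS1 against WT (11 of 14 called higher), −0.55 in N-AS against APP/PS1 (0 of 14 called) and −1.22 for oligodendrocyte markers in APP/PS1 against WT (3 of 10 called lower). Without WT 3 the differences from WT were 1.48 (12 of 14 called higher) and −1.68 (8 of 10 called lower). Of all genes 2.67% were called higher and 0.796% lower in APP/PS1 against WT, and 2.87% and 1.96% without WT 3. Of the 10 astrocyte markers Gfap was called higher in APP/PS1 against WT, at 5.65 (SE 0.55, edgeR adjusted p = 0.000545), and in N-AS against WT, and of the 10 neuronal markers Thy1 was called higher in APP/PS1 against WT, at 1.63 (SE 0.39, edgeR adjusted p = 0.0464). Gfap was at 5.47 and Thy1 at 2.37 in APP/PS1 without WT 3, both again called. The other markers of these lists did not follow as a set. In APP/PS1 against WT 7 of 10 astrocyte and 7 of 10 neuronal markers were negative, with medians of −0.19 in both lists. Without WT 3, 7 astrocyte markers and 1 neuronal marker were negative, with medians of −0.099 and 0.38. The choroid plexus mean was 4.47 ± 0.25 (SD, n = 4) in APP/PS1, 2.88 ± 1.74 (SD, n = 3) in WT and 2.96 ± 1.85 (SD, n = 3) with N-AS, where WT 3 and N-AS 3 were the low libraries, and 0 of its 5 markers were called in any comparison. CPM are shares of all reads, so these shifts and the members' levels are not independent, and their part was not tested.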

How the data were processed

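RNA seq was made from cortical microglia in 10 libraries of 2 pooled mice each. According to the methods and the labels, the authors depleted rRNA, prepared stranded libraries, aligned reads with TopHat and extracted read counts on transcripts. The submitters' processing notes also name edgeR and mm10. The versions, the annotation and the strand setting are not given in the sources used here. The deposited values are raw counts per gene symbol, whole numbers without normalization. The files list 24481 lines and 24421 symbols, and 103 lines that share 43 symbols were summed.

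Genes were kept by filterByExpr, scaled by TMM and tested with edgeR 4.0.16 in R 4.3.3 (quasi-likelihood test, one model of 3 groups, Benjamini-Hochberg over 18727 genes, threshold 0.05). CPM used the TMM factors, and log2 CPM a prior count of 2. Intervals of 95% came from the fitted fold change and its quasi-likelihood standard error. Totals were 8805804 to 19432075 reads, and PCR reads carry no molecular identifiers, so counting error is a lower limit. Pairs of libraries within a group differed by a chi-square per degree of freedom of 13.2 to 131, well beyond counting error. The spread between libraries, rather than the totals, therefore set the precision. Samples were grouped by title. Nothing states that the libraries of a group came from separate preparations beyond their pools, so p-values measure the spread between these libraries. Gene positions and merged exon lengths came from GENCODE M21 (GRCm38), matched by symbol for all 33 members, and promoters from RefSeq. The edgeR quasi-likelihood fit was tested on simulated data in each of the 3 comparisons, and the other steps were not. The simulated counts had one spread per gene in all groups, so a library that stands apart, as WT 3 did, was not covered.

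The alternatives were RLE size factors, total counts only, DESeq2 1.42.0, limma 3.58.1 voom with quantile normalization, no filter beyond 1 read, a prior count of 0.5, the library set (library numbers 1 to 6 against 7 to 10) as a factor, the replicate number as a block, and leaving out each library. Replicate numbers came from the labels. Same-numbered libraries of N-AS and APP/PS1 deviated together, with r of 0.28, 0.14 and 0.31 over genes. They also share a library set, so number and set cannot be told apart. No source used here states a pairing, and the main fit had no block.

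All 33 members are named, each with its level, and of the related lists those past the adjusted threshold. The members and lists were chosen with earlier results of these data known, so the members get no p as a group.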

Additional observations from a re-analysis of the deposited data

Results flagged for a closer look

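In the group of 4 APP/PS1 libraries 1 library lay apart from the other 3 in 3 of the 35 sets of values checked (8.57%), by a gap to its nearest neighbour that exceeded Dixon's 95% critical value as a share of the group's whole range. Chance alone gives about 1 in 20 such cases, and groups of 3 libraries were not checked. All 3 concern APP/PS1 3, and they are related, since both genes enter the mean.

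Cldn5, the claudin of the tight junction, was at 4.82 log2 CPM in APP/PS1 3 and at 5.19 to 5.25 in the other 3 libraries. Esam, an adhesion molecule of endothelial junctions, was at 5.75 log2 CPM in APP/PS1 3 and at 5.89 to 5.91 in the others. The mean over the 28 endothelial members was 6.34 in APP/PS1 3 and 6.45 to 6.46 in the others.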

How the results depend on the processing

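Under every alternative that kept all 10 libraries, 0 of 33 members were called in each of the 3 comparisons, and leaving out any library but WT 3 also left 0. Members called lower in APP/PS1 against WT ranged from 0 to 4 over the fits that left out 1 library, and the 4 came without WT 3, where Cldn5, Egfl7, Sox18 and Ocln passed. The replicate block gave 0 of 33 calls in every comparison and changed no call. Same-numbered libraries deviated with r of −0.49, 0.44 and −0.0096 in APP/PS1 and WT and of −0.14, 0.35 and 0.24 in N-AS and WT. No source used here states a pairing there either. For scaling, the median of all genes in APP/PS1 against WT was −0.074 in the main setting and −0.13 with DESeq2.

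Signs of small fold changes turned without any call. In 41 cases outside the fits that left out a library, the log2 fold changes were as follows. In APP/PS1 against WT they were Erg 0.0061 with RLE size factors, Erg 0.050 and Podxl 0.039 with total counts only, Erg 0.0088 with DESeq2, Ly6a 0.14, Erg 0.094 and Podxl 0.17 with limma-voom after quantile normalization, Erg 0.012 with no filter beyond 1 read, Ly6a 0.044, Erg 0.056 and Podxl 0.13 with the replicate block and Ly6a 0.18, Erg 0.12 and Podxl 0.19 with the library set as a factor. In N-AS against APP/PS1 they were Ly6a −0.0056 with total counts only, Ly6a −0.012 with limma-voom after quantile normalization, Cldn5 0.054 with the replicate block and Ly6a −0.14 and Sox18 −0.060 with the library set as a factor. In N-AS against WT they were Cdh5 0.015 and Abcg2 0.018 with total counts only, Abcg2 0.0011 with DESeq2, Pecam1 0.027, Cdh5 0.055, Ly6a 0.13, Abcg2 0.036, Mfsd2a −0.062, Bsg 0.042 and Podxl 0.041 with limma-voom after quantile normalization, Cdh5 0.021 and Abcg2 0.024 with no filter beyond 1 read, Cdh5 0.055, Ly6a 0.066, Abcg2 0.030, Mfsd2a −0.014 and Podxl 0.015 with the replicate block and Cdh5 0.047, Ly6a 0.041, Abcg2 0.031, Mfsd2a −0.016 and Podxl 1.1e-05 with the library set as a factor.

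With each library left out in turn, 26 members changed sign at least once in APP/PS1 against WT, with ranges of Pecam1 −0.10 to 0.60, Cdh5 −0.11 to 0.50, Kdr −0.10 to 0.38, Tek −0.16 to 0.47, Tie1 −0.30 to 0.39, Ly6c1 −0.21 to 0.52, Ly6a −0.48 to 0.29, Slco1a4 −0.51 to 0.042, Slco1c1 −0.25 to 0.066, Abcb1a −0.24 to 0.32, Abcg2 −0.38 to 0.085, Mfsd2a −0.17 to 0.0020, Esam −0.039 to 0.58, Emcn −0.20 to 0.34, Erg −0.29 to 0.30, Vwf −0.010 to 0.91, Itm2a −0.18 to 0.32, Bsg −0.082 to 0.29, Sox17 −0.52 to 0.17, Slc2a1 −0.16 to 0.60, Podxl −0.37 to 0.31, Ocln −0.52 to 0.13, Pdgfrb −0.22 to 0.084, Rgs5 −0.018 to 0.64, Vtn −0.057 to 0.30 and Kcnj8 −0.019 to 0.29. With each library left out in turn, 15 members changed sign at least once in N-AS against APP/PS1, with ranges of Cldn5 −0.12 to 0.053, Ly6c1 −0.17 to 0.026, Ly6a −0.14 to 0.20, Slco1c1 −0.14 to 0.16, Mfsd2a −0.15 to 0.26, Vwf −0.30 to 0.14, Itm2a −0.17 to 0.082, Sox18 −0.065 to 0.29, Slc2a1 −0.21 to 0.12, Spock2 −0.036 to 0.18, Podxl −0.18 to 0.053, Pdgfrb −0.17 to 0.013, Rgs5 −0.0077 to 0.10, Vtn −0.022 to 0.13 and Abcc9 −0.25 to 0.0048. With each library left out in turn, 25 members changed sign at least once in N-AS against WT, with ranges of Pecam1 −0.49 to 0.21, Cdh5 −0.31 to 0.30, Flt1 −0.090 to 0.54, Tek −0.28 to 0.35, Tie1 −0.53 to 0.16, Ly6c1 −0.27 to 0.47, Ly6a −0.45 to 0.32, Slco1a4 −0.29 to 0.26, Slco1c1 −0.25 to 0.12, Abcb1a −0.17 to 0.40, Abcg2 −0.27 to 0.21, Mfsd2a −0.24 to 0.16, Esam −0.26 to 0.37, Emcn −0.47 to 0.076, Erg −0.44 to 0.15, Vwf −0.088 to 0.83, Itm2a −0.22 to 0.27, Bsg −0.20 to 0.18, Eng −0.011 to 0.60, Sox17 −0.70 to 0.0052, Slc2a1 −0.20 to 0.57, Podxl −0.44 to 0.25, Ocln −0.63 to 0.016, Pdgfrb −0.28 to 0.035 and Vtn −0.0063 to 0.35.

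Sox18 (61 to 226 reads) and Kcnj8 (72 to 222 reads) had the fewest reads of the members. The SE in APP/PS1 against WT was 0.31 in Sox18, 0.25 in Kcnj8 and 0.42 in Vwf. Whether depth limits these fits was not tested.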
